A study of Mus musculus with 33 samples.

Results

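The microglia of a pair of developing white matter regions, the corpus callosum (CC) and the cerebellum (Cb), were compared with each other on postnatal day 7 (P7). The comparison rests on 6 of the 33 RNA-seq libraries of the series, 3 from the CC and 3 from the Cb, chosen by the region and age in their labels. The study sorted microglia of the CC, the Cb and the cerebral cortex (Cx) at P7, P10 and P42 to ask how the expression profile of white matter microglia develops relative to that of grey matter microglia. The mice of the 33 libraries were untreated C57BL/6 J animals kept under specific pathogen-free conditions. Each P7 group held 2 libraries from male and 1 from female mice, and the groups at P10 and P42 held 4 libraries each. Cells were taken after perfusion as CD45+, CD11b+ and Gr- events by fluorescence-activated cell sorting, so that any CD11b+ macrophage without the Gr marker could enter the gate. The 3 Cx libraries at P7 and the 8 libraries of the CC and Cb at P10, and the 8 at P42, serve below as references.

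Microglia are the resident macrophages of the brain. In the first postnatal week those of the white matter tracts are amoeboid and take up debris and surplus cells. They also carry genes known from microglia in ageing and disease, the so-called priming genes. They later become ramified and take on a homeostatic profile with genes such as P2ry12 and Tmem119. The CC is almost purely a fibre tract, whereas the Cb also holds cortical layers with granule and Purkinje cells, so that microglia sorted from the whole Cb come from more than its white matter.

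Between 24383544 and 36254599 reads per CC library and between 35513629 and 38670110 per Cb library were counted on genes, and levels are given as CPM, the counts scaled to the library total with TMM factors. The microglial gene P2ry12 was abundant in all 6 libraries. It lay between 4362 and 5080 CPM in the CC and between 6743 and 7281 CPM in the Cb. Marker genes of other cells were also found, mostly with higher sums in the Cb. The 12 genes of the oligodendrocyte lineage summed to 143 to 197 CPM in the CC and 182 to 329 CPM in the Cb, the 9 of astrocytes to 72.4 to 81.3 CPM against 83.6 to 119 CPM without overlap, and the 11 of endothelial cells and pericytes to 31.9 to 44.2 CPM against 41.8 to 58.0 CPM. The 15 genes of the response to dissociation summed to 375 to 419 CPM and 417 to 482 CPM, and 8 of monocytes to 8.48 to 11.3 CPM and 13.1 to 19.5 CPM. Those of neurons were lower, with 4.56 to 10.2 CPM for 11 neuronal genes in the CC and 18.2 to 39.7 CPM in the Cb, and 0.558 to 7.27 CPM against 10.6 to 24.5 CPM for 14 genes of granule and Purkinje cells. Of the latter, Barhl1, a transcription factor of granule cells, had no read in any CC library. The 14 markers of border macrophages, the macrophages of meninges and vessels, summed to 1255 to 1485 CPM in the CC, 677 to 755 CPM in the Cb and 1280 to 1522 CPM in the Cx. The part of these cells in the results below was not tested. The labels do not say whether libraries of a group came from separate animals, so p-values measure the spread between these libraries. Nor do the labels say whether same-numbered CC and Cb libraries, which match in sex, came from the same animal. The tests took them as independent.

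A gene was called when the adjusted p-value was 0.01 or less and the absolute log2 fold change 1 or more, in a single model of all 33 libraries. Of 20917 genes tested, 15 were called between CC and Cb microglia at P7, which is 0.0717% (edgeR's quasi-likelihood test, Benjamini-Hochberg adjustment). Of these, 14 were higher in the Cb (0.0669%) and 1, S100a1, was higher in the CC (0.00478%). Without a minimum fold change, 52 genes passed (0.249%), 40 higher in the Cb (0.191%) and 12 higher in the CC (0.0574%). At an adjusted p of 0.05, 127 genes passed (0.607%). An unadjusted p-value of 0.05 or less was found for 1775 genes (8.49%), and the libraries of the regions did not overlap for 3601 genes (17.2%). The median log2 fold change over all genes was -0.01. For genes whose mean log2 CPM reached 1, 10370 in all, the 95% interval of the log2 fold change lay wholly between -1 and 1 in 6509 cases (62.8%).

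This ratio of directions depended on the tool and on which libraries supplied the spread between replicates. On the same 33 libraries limma-voom, the tool named in the paper's methods, called 52 genes (0.249%), 29 higher in the CC (0.139%) and 23 higher in the Cb (0.11%), while DESeq2 called 79 (0.378%), 15 higher in the CC (0.0717%) and 64 higher in the Cb (0.306%). When the same test was fitted on the 6 libraries alone, 18 genes were called (0.0861%), 12 of them higher in the CC (0.0574%) and 6 higher in the Cb (0.0287%). The fits by edgeR shared 5 called genes, namely Cd34, Spint1, Selplg, Rtp4 and S100a1. The genes gained in the CC included 5 of the 12 priming genes, described below.

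**Figure D1:**
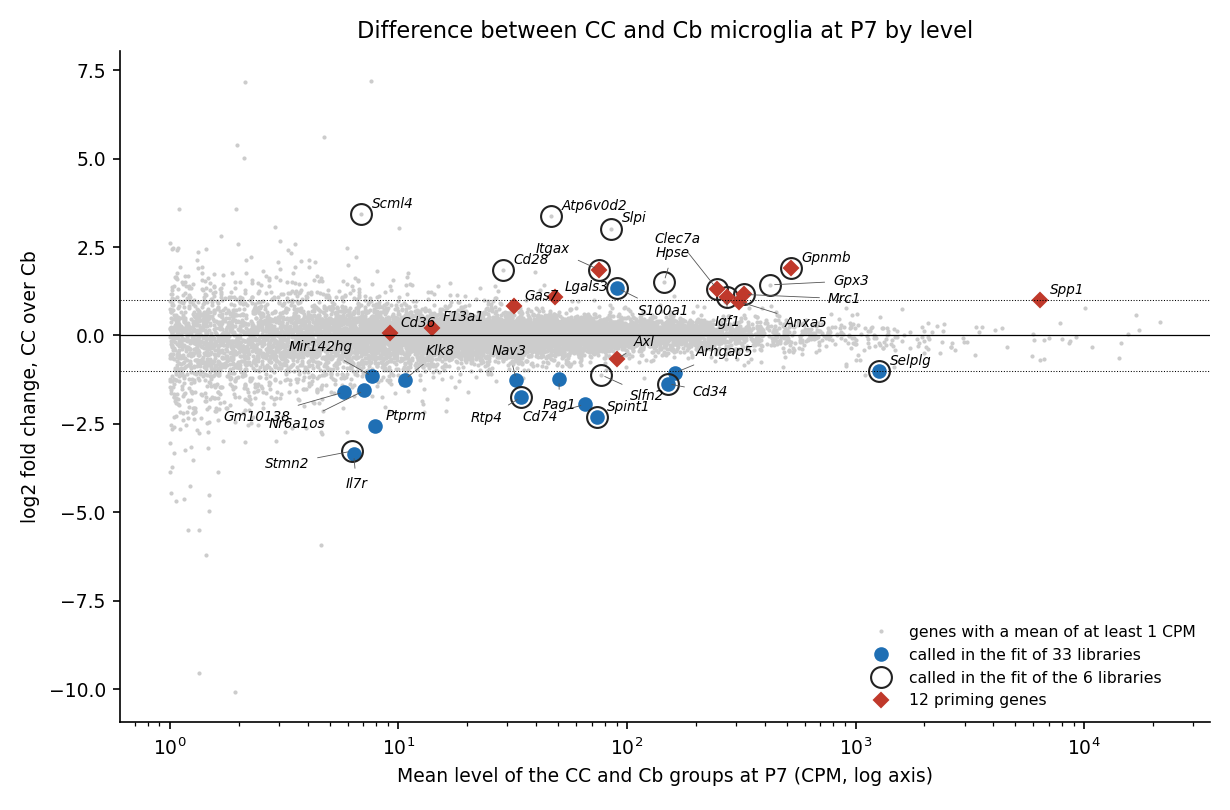
Log2 fold change of the CC over the Cb at P7 (vertical axis) against the mean level of both groups in CPM (log axis), for genes whose mean reached 1 CPM, n = 3 libraries per region. Of the 15 genes called in the fit of 33 libraries, 14 lie below 0, while 12 of the 18 genes called in the fit of the 6 libraries lie above it.

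The CC and Cb libraries stood only slightly further from each other than from their own group. The mean Euclidean distance on log2 CPM was 63.8 between regions and 57.1 within a region over 10086 genes, a ratio of 1.12. In the exact one-sided permutation test over the 10 distinct splits of 3 against 3 libraries the p-value was 0.1, the smallest this design allows.

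Cd34, a sialomucin of blood progenitor and endothelial cells, measured 80.6, 90.5 and 82.0 CPM in the 3 CC libraries and 214, 229 and 208 CPM in the Cb (chr1:194938819-194961279, GRCm38). All Cb libraries lay well above those of the CC, and the Cx libraries lay with the CC at 76.9 to 101 CPM. The log2 fold change was -1.36 (SE 0.13, adjusted p = 2.53e-07 by edgeR). Selplg, the selectin ligand PSGL-1 and one of the homeostatic genes, measured 952, 773 and 807 CPM in the CC and 1898, 1476 and 1732 CPM in the Cb (chr5:113818536-113832644), with a log2 fold change of -1.01 (SE 0.10, adjusted p = 2.53e-07 by edgeR). The Selplg call was lost by limma-voom at its default smoothing span (adjusted p = 0.21). With a narrower span, chosen after seeing the data, limma-voom kept it (adjusted p = 8.42e-07). It was also lost without CC replicate 2, CC replicate 3 or Cb replicate 1. In those fits the log2 fold change fell short of the limit (-0.96, -0.99 and -0.94).

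Il7r, the receptor of interleukin 7 and best known from lymphocytes, measured 1.53, 1.51 and 0.391 CPM in the CC, and 15.1, 12.1 and 7.49 CPM in the Cb (chr15:9506161-9529876). Its lowest Cb library was still above the highest CC library. The log2 fold change of -3.36 (SE 0.45, adjusted p = 6.98e-05 by edgeR) was the largest among the called genes. Ptprm, an adhesive receptor tyrosine phosphatase, measured 1.28, 3.79 and 1.76 CPM in the CC, and 15.2, 16.0 and 9.23 CPM in the Cb (chr17:66666848-67354459). Its log2 fold change was -2.56 (SE 0.35, adjusted p = 9.09e-05 by edgeR). Pag1, a membrane adaptor that holds the kinase Csk at lipid rafts, lay between 26.7 and 36.3 CPM in the CC and between 59.7 and 80.8 CPM in the Cb (chr3:9687479-9833679), a log2 fold change of -1.25 (SE 0.17, adjusted p = 1.33e-04). Il7r, Ptprm and Pag1 were not called in the fit of the 6 libraries, with adjusted p-values of 0.032, 0.039 and 0.014 by edgeR. Il7r also lost its call by limma-voom (adjusted p = 0.121, or 0.248 with the narrower span), Pag1 by limma-voom (0.0141) and Ptprm by limma-voom with the narrower span (0.0172).

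Spint1, or HAI-1, inhibits the activator of hepatocyte growth factor and matriptase. It measured 13.0, 30.5 and 30.5 CPM in the CC and 128, 108 and 132 CPM in the Cb (chr2:119237362-119249527), and the Cx libraries lay between both at 60.1 to 75.6 CPM. The log2 fold change was -2.31 (SE 0.22, adjusted p = 2.53e-07 by edgeR). Klk8, a secreted kallikrein protease also called neuropsin, measured 6.82, 5.33 and 6.78 CPM in the CC and 18.9, 14.0 and 12.0 CPM in the Cb (chr7:43797577-43803826), with a log2 fold change of -1.25 (SE 0.24, adjusted p = 0.00621 by edgeR). Its call was lost in 10 of 16 alternatives, 5 of them with 1 library left out, with an adjusted p of up to 0.179. Of 30 tested genes for serine protease inhibitors, proteases and their substrates, only Spint1 passed an adjusted p of 0.05 by edgeR on 33 libraries (0.607% of all genes). At the same limit limma-voom passed 5, DESeq2 3 and the fit of the 6 libraries 3. Klk8 was not on this list, and the median log2 fold change of the list was -0.11.

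Arhgap5, which codes for a GTPase-activating protein, measured 96.3, 134 and 85.9 CPM in the CC and 229, 234 and 196 CPM in the Cb (chr12:52516077-52567852). The regions did not overlap, and the log2 fold change was -1.06 (SE 0.14, adjusted p = 5.31e-05 by edgeR). Its call was lost in the fit of the 6 libraries (adjusted p = 0.0175 by edgeR) and without CC replicate 3, where the log2 fold change was -0.94. Nav3, a protein that binds microtubule tips, measured 22.2, 24.9 and 11.1 CPM in the CC and 51.2, 52.5 and 34.9 CPM in the Cb (chr10:109682660-110456204), a log2 fold change of -1.25 (SE 0.25, adjusted p = 0.00976 by edgeR). The call of Nav3 was lost in 11 of 16 alternatives, with an adjusted p of up to 0.129.

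The remaining called genes higher in the Cb were Cd74 and Rtp4, which belong to antigen presentation and the interferon response, and 3 genes of noncoding or unassigned transcripts. Nr6a1os, an antisense transcript (chr2:38823257-38852370), had a log2 fold change of -1.56 (SE 0.30, adjusted p = 0.00842), and Mir142hg, the host transcript of the blood cell microRNA miR-142 (chr11:87755577-87757270), one of -1.16 (SE 0.23, adjusted p = 0.00942). Gm10138 (chr1:151339604-151345231) had one of -1.60 (SE 0.31, adjusted p = 0.00878 by edgeR). These 3 had means of 2.85 to 4.75 CPM in the CC, and their calls were lost in 12, 12 and 13 of 16 alternatives. The cDNA kit does not mark strand, so reads of Nr6a1os and of its partner on the other strand cannot be told apart.

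The stretches of 250 bases upstream of the transcription start are shown for 3 called genes, Cd34, Spint1 and Arhgap5. These genes had the smallest p-values by edgeR among the called ones with 1 listed promoter. The stretches are from RefSeq (GRCm38.p6, all on the + strand, lower case throughout). They are at chr1:194938571-194938820, chr2:119237110-119237359 and chr12:52515827-52516076.
Cd34: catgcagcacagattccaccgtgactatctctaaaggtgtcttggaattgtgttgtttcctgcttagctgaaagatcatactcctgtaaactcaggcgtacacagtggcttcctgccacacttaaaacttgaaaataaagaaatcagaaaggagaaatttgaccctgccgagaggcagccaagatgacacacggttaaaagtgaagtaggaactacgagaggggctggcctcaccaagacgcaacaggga
Spint1: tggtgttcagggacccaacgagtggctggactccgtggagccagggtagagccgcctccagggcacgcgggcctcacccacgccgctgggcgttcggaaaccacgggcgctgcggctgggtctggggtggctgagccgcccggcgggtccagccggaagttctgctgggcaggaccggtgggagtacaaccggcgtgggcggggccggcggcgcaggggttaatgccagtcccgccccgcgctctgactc
Arhgap5: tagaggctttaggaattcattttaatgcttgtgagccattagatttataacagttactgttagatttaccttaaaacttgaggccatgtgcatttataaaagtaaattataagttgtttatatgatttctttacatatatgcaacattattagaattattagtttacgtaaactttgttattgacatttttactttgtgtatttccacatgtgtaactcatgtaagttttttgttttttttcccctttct
Of the 15 called genes, 8 had an entry in the promoter table, and all windows were searched on both strands for 3 motifs: AGGAAGT of the myeloid factor PU.1, TGAGTCA of AP-1, and the E-box CACGTG. None of the 3 occurred in the windows shown. The PU.1 letters were found in 1 of the 8 windows, that of Il7r, and in 7.8% of all 27025 promoters. The AP-1 letters (4.43% of all promoters) and the E-box (6.05%) were found in 0 of the 8. Of the 40 genes higher in the Cb at an adjusted p of 0.01, 28 had a window, and 3 of these, those of P2ry12, Cttnbp2nl and Il7r, held the PU.1 letters (10.7%). Of the 12 higher in the CC, 9 had a window, and only that of Ccl6 held them (11.1%).

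**Figure D2:**
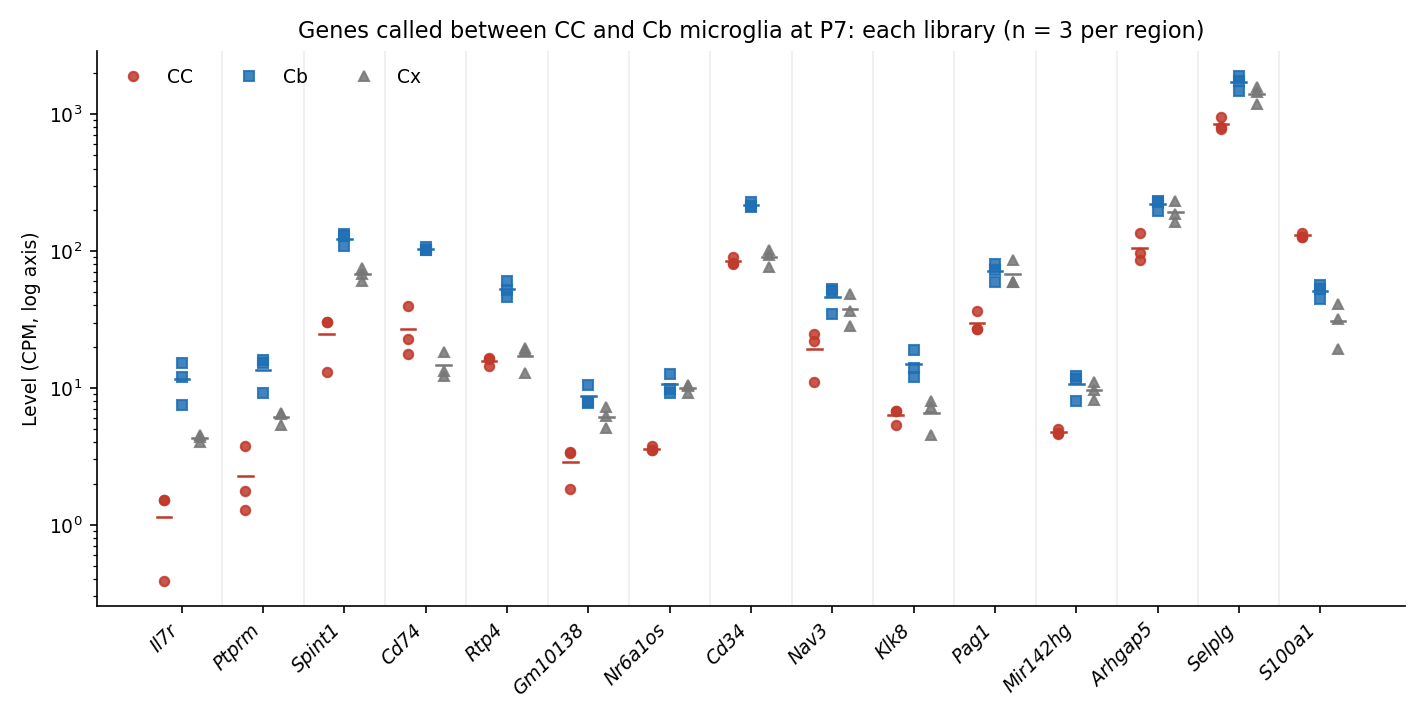
Level of each of the 15 called genes in every P7 library of the CC, the Cb and the Cx (CPM, log axis), with a bar at the mean of the 3 libraries. The CC and Cb libraries do not overlap for any of the 15 genes, and for 13 of them the Cx mean lies between the CC mean and the Cb mean.

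S100a1, a calcium-binding protein best known from muscle, was the only gene called in the CC. It measured 127, 136 and 126 CPM in the CC, 56.4, 53.1 and 44.3 CPM in the Cb and 19.2 to 41.0 CPM in the Cx (chr3:90511034-90514392). The 3 CC libraries lay close together and above all others, and the log2 fold change was 1.34 (SE 0.25, adjusted p = 0.0055 by edgeR). The call was lost when any 1 of the 6 libraries was left out, with the highest adjusted p at 0.0474 over all alternatives.

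The other genes higher in the CC at an adjusted p of 0.01 differed by less than 2-fold. Sepp1 (selenoprotein P, a selenium carrier) measured 12550, 13286 and 12375 CPM in the CC and 7756, 7840 and 6740 CPM in the Cb. Its log2 fold change of 0.77 (SE 0.08, adjusted p = 4.69e-07 by edgeR) was among the most precise of all. Aplp2, a relative of the amyloid precursor protein, measured 537, 558 and 545 CPM against 283, 310 and 334 CPM, a log2 fold change of 0.82 (SE 0.13, adjusted p = 7.39e-04). Sord, the sorbitol dehydrogenase, lay between 162 and 194 CPM in the CC and between 91.5 and 105 CPM in the Cb, a log2 fold change of 0.87 (SE 0.14, adjusted p = 9.03e-04 by edgeR). Ccl6, a chemokine of the myeloid lineage, measured 1067, 1141 and 1216 CPM against 697, 668 and 647 CPM, a log2 fold change of 0.77 (SE 0.12, adjusted p = 4.27e-04). The remaining ones were Ctsb, Clta, Lmo2, Akr1a1, Gltp, Rcbtb2 and Mpp1, with log2 fold changes between 0.38 and 0.69.

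Between an adjusted p of 0.01 and 0.05, genes of several functions followed. Higher in the CC were the biliverdin reductase Blvra, the sugar-nucleotide enzyme Uap1l1, the mitochondrial aldehyde dehydrogenase Aldh2, the raft protein Rftn1 and the priming genes Anxa5 and Clec7a, with log2 fold changes between 0.79 and 1.32. Higher in the Cb were Asap3, Upk1b, Spns2, Ifitm3, Arhgef40, Slco4a1, Slfn2 and the nuclear RNA Malat1, with log2 fold changes between -2.17 and -1.11. Malat1 measured 702, 791 and 589 CPM in the CC and 1492, 1803 and 1192 CPM in the Cb.

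Of the 12 priming genes named in the paper, 11 had a log2 fold change above 0, with a median of 1.03, beside -0.01 over all genes tested. In the fit of 33 libraries 0 of the 12 passed an adjusted p of 0.01 by edgeR, 2 passed 0.05 (0.607% of all genes) and 6 had an unadjusted p of 0.05 or less (8.49% of all genes). DESeq2 called 2 of them, limma-voom 6 and limma-voom with the narrower span 5, all higher in the CC. The gene lost with the narrower span was Spp1 (adjusted p = 0.062 by limma-voom). Library by library, 8 separated the regions with the CC higher throughout, beside 8.95% of all genes. The study described these genes on the same samples, so the list is not independent evidence of its direction. Clec7a, the beta-glucan receptor dectin-1, measured 312, 375 and 370 CPM in the CC and 137, 131 and 155 CPM in the Cb, against 10.8 to 11.9 CPM in the Cx. Its log2 fold change was 1.32 (SE 0.28, adjusted p = 0.0179 by edgeR). Anxa5, which binds exposed phosphatidylserine, measured 387, 372 and 467 CPM against 184, 197 and 251 CPM, a log2 fold change of 0.96 (SE 0.21, adjusted p = 0.0274 by edgeR).

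The largest differences within the list were those of Gpnmb and Itgax. Gpnmb, a glycoprotein of lipid-laden macrophages, measured 775, 812 and 898 CPM in the CC and 141, 238 and 285 CPM in the Cb, with 2.76 to 7.71 CPM in the Cx. The log2 fold change was 1.90, with an SE of 0.81 and an adjusted p of 0.509 in the fit of 33 libraries. Itgax, the integrin CD11c, measured 92.3, 137 and 123 CPM against 26.5, 35.8 and 34.6 CPM, a log2 fold change of 1.86 (SE 0.48, adjusted p = 0.0797 by edgeR). For both genes the regions were far from overlapping.

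Igf1, a growth factor for oligodendrocytes, lay between 310 and 405 CPM in the CC and between 154 and 197 CPM in the Cb, a log2 fold change of 1.09 (SE 0.49, adjusted p = 0.543 by edgeR). Mrc1, the mannose receptor CD206 and also a marker of border macrophages, measured 411, 530 and 411 CPM in the CC, 233, 195 and 177 CPM in the Cb and 684 to 905 CPM in the Cx. It was the one priming gene whose Cx libraries all lay above those of the CC. Without Mrc1 the other 13 border macrophage markers summed to 844 to 956 CPM in the CC, 482 to 547 CPM in the Cb and 576 to 617 CPM in the Cx. Spp1 (osteopontin) lay between 6686 and 11499 CPM in the CC and between 2825 and 6228 CPM in the Cb, a log2 fold change of 0.99 (SE 0.70, adjusted p = 0.778 by edgeR). Gas7 and Lgals3 had log2 fold changes of 0.82 and 1.07, and Cd36 and F13a1 of 0.07 and 0.22. Axl, a receptor for apoptotic cells, went the other way with 67.1 to 72.8 CPM in the CC and 90.7 to 125 CPM in the Cb, a log2 fold change of -0.66 (SE 0.36, adjusted p = 0.662 by edgeR).

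For all 12 genes the spread between replicates was smaller in the 6 libraries than in the other 27. The standard deviation (SD) of log2 CPM within groups was 0.38 for Gpnmb in the 6 libraries (4 degrees of freedom) and 1.77 in the others (20 degrees of freedom). The values were 0.27 and 0.69 for Itgax, 0.20 and 0.80 for Igf1, 0.21 and 1.13 for Mrc1, and 0.14 and 0.39 for Clec7a. In the fit of the 6 libraries alone these 5 genes were called, with adjusted p-values between 9.8e-04 for Clec7a and 0.0078 for Igf1 (edgeR's quasi-likelihood test). Anxa5 had an adjusted p of 0.017 there, and Spp1, with an SD of 0.50 in the 6 libraries, one of 0.29. For Spint1 the order was the opposite, with an SD of 0.51 in the 6 libraries and 0.21 in the others.

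The fit of the 6 libraries called 7 more genes higher in the CC apart from the 5 priming genes, of which S100a1 was also called before. The other 6 were chosen here after their values were seen. Slpi, a secreted inhibitor of leukocyte elastase, had a mean of 152 ± 20.0 CPM in the CC, 18.7 ± 4.44 CPM in the Cb and 0.599 ± 0.474 CPM in the Cx (SD, n = 3 each), with a log2 fold change of 3.00 and an adjusted p of 3.4e-04 by edgeR. Gpx3, an extracellular glutathione peroxidase, had 619 ± 27.3 CPM against 230 ± 22.0 CPM in the Cb (SD, n = 3), and Hpse, the heparanase, 215 ± 22.7 CPM against 75.3 ± 8.12 CPM (SD, n = 3). Atp6v0d2, a subunit of the vacuolar proton pump, had 85.1 ± 26.4 CPM against 8.23 ± 4.86 CPM (SD, n = 3). The last were Cd28 and Scml4. In the fit of 33 libraries the adjusted p-values of these 6 genes lay between 0.1 for Slpi and 0.89 for Cd28 by edgeR, whereas limma-voom on the same 33 libraries called Slpi (2.7e-08), Gpx3 (1.2e-08), Hpse (0.0014) and Atp6v0d2 (0.0048) but not Cd28 and Scml4. Of its 6 calls towards the Cb, those not called before were Slfn2 and Stmn2. Stmn2, a protein of growing axons and one of the neuronal markers, had 1.18 ± 0.386 CPM in the CC, 11.4 ± 3.30 CPM in the Cb and 6.04 ± 2.05 CPM in the Cx (SD, n = 3), with adjusted p-values of 0.0095 in the fit of the 6 libraries and 0.53 in that of 33 by edgeR. The part of neuronal RNA in the other results was not tested.

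**Figure D3:**
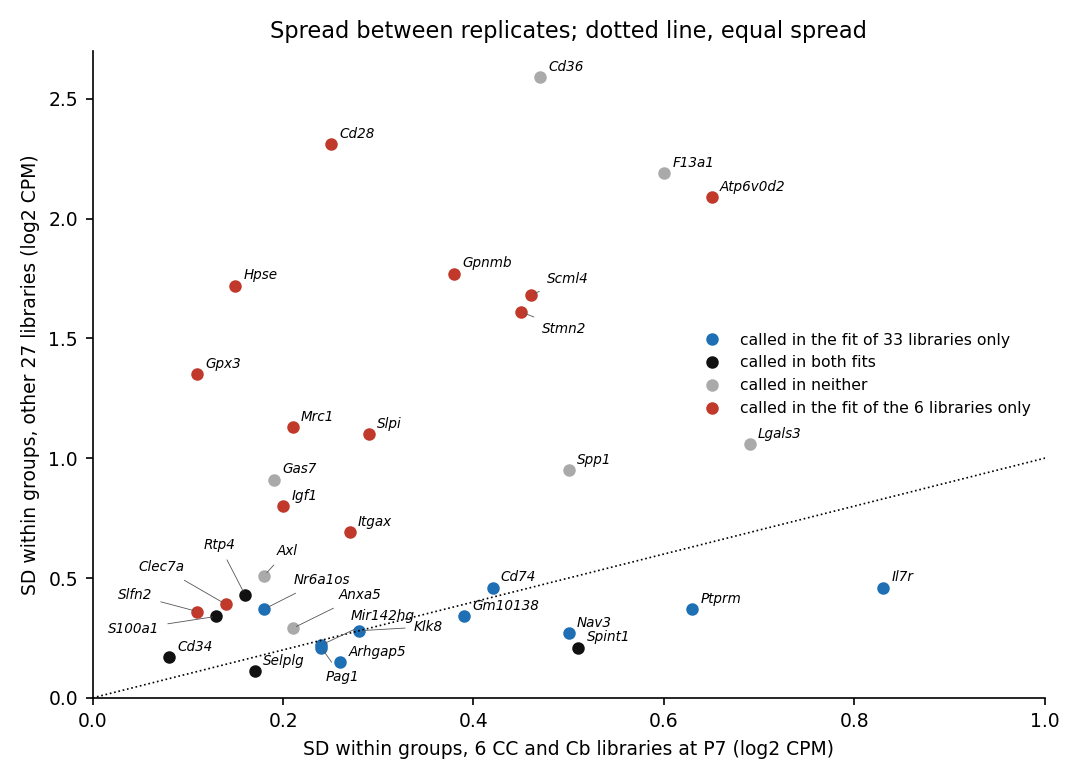
Standard deviation of log2 CPM within groups for the 12 priming genes and the genes called in either fit, in the 6 CC and Cb libraries at P7 (horizontal axis) and in the other 27 libraries (vertical axis); the dotted line marks equal spread. Colours give the calls by edgeR, and genes that edgeR called in the fit of the 6 libraries but not in that of 33 lie above the line, such as Gpnmb at 0.38 and 1.77.

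Genes of amoeboid and disease-associated microglia outside the priming list leaned the same way. Of 28 genes, 26 had a log2 fold change above 0, where 9861 of all 20917 genes did, with a median of 0.39, and 2 passed an adjusted p of 0.01 by edgeR (0.249% of all genes), Ccl6 and the lysosomal protease Ctsb. Ctsb measured 24981, 23737 and 24361 CPM in the CC and 18056, 18704 and 19277 CPM in the Cb, a log2 fold change of 0.38 (SE 0.07, adjusted p = 0.006 by edgeR). Ctsl, a second cathepsin, had a log2 fold change of 0.36 (SE 0.07, adjusted p = 0.0136). Apoe, the lipid carrier, lay between 19270 and 22115 CPM in the CC and between 12897 and 14259 CPM in the Cb without overlap, with a log2 fold change of 0.58 (SE 0.24, adjusted p = 0.467 by edgeR).

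Homeostatic genes leaned towards the Cb. Of 20 genes, 19 had a log2 fold change below 0, with a median of -0.31, and the Cb was higher in every library for 17, beside 8.26% of all genes. Selplg was called, 6 genes passed an adjusted p of 0.01 (0.249% of all genes) and 9 passed 0.05 (0.607% of all genes) by edgeR. At 0.05, DESeq2 passed 10, limma-voom 2 and limma-voom with a narrower span 8. Tmem119, a microglial membrane protein, measured 1159, 1016 and 910 CPM in the CC and 2184.5, 1634 and 1924 CPM in the Cb, a log2 fold change of -0.90 (SE 0.11, adjusted p = 2.59e-05 by edgeR). Tgfbr1, the type I receptor of TGF-beta, a signal that homeostatic microglia depend on, measured 635, 764 and 537 CPM against 1233, 1151 and 1132 CPM, a log2 fold change of -0.86 (SE 0.13, adjusted p = 5.29e-04). Both genes separated the regions in all 6 libraries.

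The secreted protein Sparc measured 5086, 4706 and 4996 CPM in the CC and 7927, 8186 and 7760 CPM in the Cb, a log2 fold change of -0.69 (SE 0.08, adjusted p = 1.02e-05 by edgeR). The protease inhibitor Cst3 measured 12071, 10745 and 10596 CPM against 17759, 17652 and 16366 CPM, a log2 fold change of -0.63 (SE 0.10, adjusted p = 7.11e-04). P2ry12, the purinergic receptor that steers microglial processes, had a log2 fold change of -0.57 (SE 0.10, adjusted p = 0.00304 by edgeR). Csf1r, the receptor on which microglial survival depends, had one of -0.32 (SE 0.07, adjusted p = 0.0389), and Olfml3 one of -0.33 (SE 0.07, adjusted p = 0.0213). Upk1b, also on the list, had one of -1.71 (SE 0.40, adjusted p = 0.0384 by edgeR).

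In all, 26 genes were higher in the Cb at an adjusted p of 0.01 and below the fold limit. Tmem119, Tgfbr1, Sparc, Cst3 and P2ry12, given above, were among them. Those added here were chosen after their values were seen. F11r, a junctional adhesion molecule, measured 747, 658 and 580 CPM in the CC and 1280, 1153 and 1043 CPM in the Cb, a log2 fold change of -0.81 (SE 0.09, adjusted p = 1.25e-06 by edgeR). Adgrg1, the adhesion receptor GPR56, measured 361, 362 and 297 CPM against 696, 569 and 617 CPM, a log2 fold change of -0.88 (SE 0.10, adjusted p = 3.05e-06). Tmem173, the cytosolic DNA sensor adaptor STING, had one of -0.74 (SE 0.11, adjusted p = 1.74e-04), Ly86, a partner of the lipopolysaccharide receptor family, one of -0.50 (SE 0.08) and Vsir, an immune checkpoint protein, one of -0.42 (SE 0.08, adjusted p = 0.0074 by edgeR).

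Antigen presentation and the interferon response also leaned towards the Cb. Of 19 genes of antigen presentation, 15 had a log2 fold change below 0, with a median of -0.40, and 3 passed an adjusted p of 0.01 by edgeR, all higher in the Cb (0.191% of all genes). Cd74, the invariant chain of MHC class II, measured 17.8, 22.8 and 39.7 CPM in the CC, 101, 102 and 107 CPM in the Cb and 12.3 to 18.4 CPM in the Cx. The Cb libraries lay close together far above both other regions, and the log2 fold change was -1.95 (SE 0.37, adjusted p = 0.00614 by edgeR). The call of Cd74 was lost in the fit of the 6 libraries and when any 1 of them but CC replicate 3 was left out, with an adjusted p of up to 0.0592. H2-DMa, which loads peptides onto class II molecules, had a log2 fold change of -0.75 (SE 0.12, adjusted p = 9.03e-04) and B2m, the light chain of class I, one of -0.56 (SE 0.11, adjusted p = 0.00954 by edgeR). H2-D1, a class I heavy chain with close paralogs whose shared reads the authors discarded, had one of -0.28 (adjusted p = 0.585).

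Of 25 genes of the interferon response, 21 had a log2 fold change below 0, with a median of -0.72, and 12 separated the regions with the Cb higher, beside 8.26% of all genes. Rtp4, an interferon-induced chaperone of receptors, was the called one. It measured 14.4, 16.2 and 16.6 CPM in the CC, 46.5, 60.4 and 51.8 CPM in the Cb and 12.9 to 19.6 CPM in the Cx. The log2 fold change was -1.75 (SE 0.31, adjusted p = 0.00337 by edgeR), and the call was lost in 7 of 16 alternatives, with an adjusted p of up to 0.0333. Ifitm3, an antiviral membrane protein, lay between 8.77 and 10.7 CPM in the CC and between 21.7 and 28.6 CPM in the Cb, a log2 fold change of -1.45 (SE 0.32, adjusted p = 0.0217 by edgeR). Bst2 (tetherin), the most abundant of the named ones, reached at most 102 CPM in the CC and at least 131 CPM in the Cb, a log2 fold change of -0.43 (adjusted p = 0.161). In these sorted bulk samples, a higher level in some cells and a larger share of such cells cannot be told apart.

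**Figure D4:**
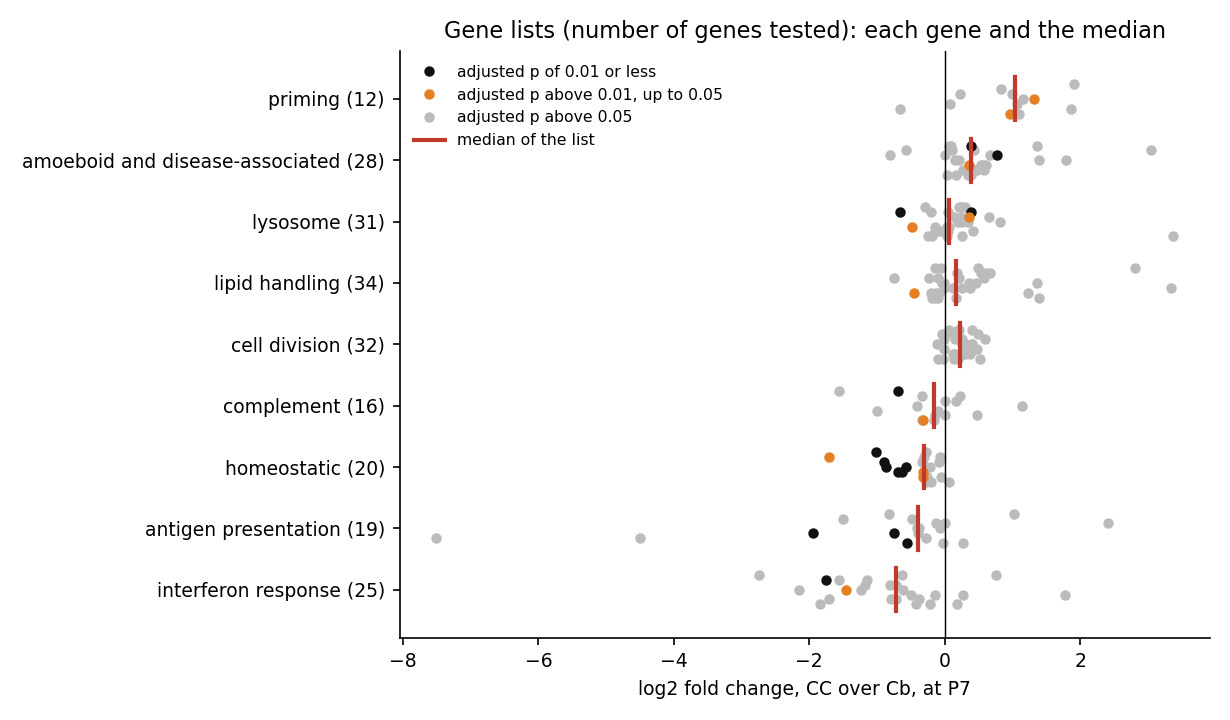
Log2 fold change of the CC over the Cb at P7 for each tested gene of 9 lists, with the median as a red bar and the adjusted p-value of the fit of 33 libraries as the colour. The medians run from 1.03 for the priming genes to -0.72 for the interferon response, and few genes of either list are coloured.

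Lysosomal genes differed in both directions. Of 31, 17 had an unadjusted p of 0.05 or less by edgeR, beside 8.49% of all genes. The CC was higher in every library for 12, beside 8.95% of all genes, and the Cb for 6, beside 8.26%. At an adjusted p of 0.05 edgeR passed 4 (0.607% of all genes), limma-voom 8 and DESeq2 6. Ctsb passed an adjusted p of 0.01 in the CC, and Ctss, the cathepsin of antigen processing, in the Cb. Ctss measured 5796, 4793 and 4938 CPM in the CC and 7841, 8898 and 7690 CPM in the Cb, a log2 fold change of -0.65 (SE 0.10, adjusted p = 4.25e-04 by edgeR). Ctsh followed at -0.48 (SE 0.10, adjusted p = 0.0173), while Ctsd, the most abundant after Ctsb, had a log2 fold change of 0.03. Cathepsins thus passed the test in opposite directions, and the median of the list was 0.06. The 5 phagocytosis genes named in the paper had a median of 0.07 (-0.20 to 0.16 over the alternatives), and 0 passed an adjusted p of 0.05 by edgeR, limma-voom or DESeq2, or an unadjusted p of 0.05 by edgeR. Of these, Gsn, which severs actin filaments, measured 37.8 to 45.8 CPM in the CC and 22.0 to 24.9 CPM in the Cb with a log2 fold change of 0.85 (adjusted p = 0.644 by edgeR). The interval of Scarb1 ran from -0.27 to 0.43, that of Abca1 from -0.51 to 0.32 and that of Grk6 from -0.68 to 0.47.

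Among 29 clearance receptors and bridging proteins, Stab1, a scavenger receptor that is also a marker of border macrophages, had a log2 fold change of 0.79 (SE 0.16, adjusted p = 0.0125 by edgeR), with 390 to 507 CPM in the CC and 226 to 282 CPM in the Cb. Of 16 complement genes, 11 lay below 0, with a median of -0.15. Itgam, the complement receptor CD11b by which the cells were gated, measured 752, 856 and 703 CPM in the CC and 1289, 1182 and 1262 CPM in the Cb, a log2 fold change of -0.69 (SE 0.13, adjusted p = 0.00444). C1qa had one of -0.32 (SE 0.07, adjusted p = 0.0384 by edgeR), while C1qb and C1qc had -0.15 and -0.10 and did not pass.

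Of 33 chemokines, cytokines and receptors, Ccl6 was higher in the CC. Il10ra, a receptor chain of interleukin 10, was higher in the Cb with a log2 fold change of -0.37 (SE 0.09, adjusted p = 0.0451 by edgeR). Of 27 microglial transcription factors 1 passed an adjusted p of 0.05 (0.607% of all genes), Sall3, a relative of Sall1, with 25.1 to 34.9 CPM in the CC and 53.1 to 61.6 CPM in the Cb (log2 fold change -0.89, SE 0.17, adjusted p = 0.00878 by edgeR). Irf8 and Mef2c, at -0.05 each, had intervals within -0.25 and 0.15. Of 24 growth factors and related genes Igfbp4, a binding protein of Igf1, had a log2 fold change of 0.76 (SE 0.17, adjusted p = 0.0222), whereas the most abundant one, Grn, had 0.03 (interval -0.11 to 0.17). Of 34 genes of lipid handling only Npc1 passed 0.05 by edgeR (0.607% of all genes), with -0.45 (SE 0.11, adjusted p = 0.0477), while limma-voom passed 5 and DESeq2 2. The median of this list was 0.17. Its CC libraries were all higher for 10 genes (8.95% of all genes), and its Cb libraries for 1 (8.26%). The list summed to 26003 to 29005 CPM in the CC and 18795 to 20198 CPM in the Cb.

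Of 32 genes of cell division, 26 lay above 0 with a median of 0.23, and 0 passed an adjusted p of 0.05 by edgeR, limma-voom or DESeq2, or an unadjusted p of 0.05 by edgeR. Their summed level was 2473 to 2884 CPM in the CC, 2216 to 2382 CPM in the Cb and 4306 to 4577 CPM in the Cx, so that the regions did not overlap. Of 22 genes of iron and oxidative stress and 30 of extracellular matrix and adhesion, 0 passed an adjusted p of 0.05 by edgeR. An unadjusted p of 0.05 or less was found for 3 and 4 of them, beside 8.49% of all genes, DESeq2 passed 1 and 0, and limma-voom 2 and 1. The medians of these lists were 0.09 and 0.11.

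The Cx libraries of the same age were set beside both regions. Of the 15 called genes, 7 were lower in the CC than in the Cx at an adjusted p of 0.01 by edgeR (0.492% of all genes) and 4 were higher in the Cb than in the Cx (0.66% of all genes). The 4 were Cd34, Cd74, Rtp4 and Klk8, with log2 fold changes of the Cb over the Cx of 1.26, 2.82, 1.63 and 1.18, and they did not pass between the CC and Cx. The 7 were Il7r, Spint1, Pag1, Arhgap5, Selplg, Nr6a1os and Mir142hg, which did not pass between the Cb and Cx. Spint1 had a log2 fold change of -1.45 (SE 0.22) of the CC over the Cx and 0.86 (SE 0.21) of the Cb over the Cx. S100a1 was higher in the CC than in the Cx, with a log2 fold change of 2.08 (SE 0.26, adjusted p = 2.48e-06 by edgeR). Of the 12 genes higher in the CC at an adjusted p of 0.01, 11 were also higher in the CC than in the Cx (1.15% of all genes) and 5 also higher in the Cb than in the Cx. The Cx mean was below both for 10 of these 12. Of the 40 genes higher in the Cb at the same limit, 17 were lower in the CC than in the Cx (0.492% of all genes), 12 were higher in the Cb than in the Cx (0.66%), and the Cx mean lay between both for 30. These comparisons share the CC and Cb libraries with the first one and are given side by side only, and no difference between the gene groups was tested.

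At P10, in libraries that entered the same model but not the P7 contrast, 12 of the 15 called genes had the same sign, 6 passed an adjusted p of 0.01 (0.435% of all genes by edgeR) and 5 were called in the same direction (0.0813% in either direction and 0.0765% towards the Cb). The 5 were Il7r, Ptprm, Spint1, Cd34 and Cd74. Fewer of the 15 were called at P10 when only the groups compared were fitted, as given in the last section. Cd34 measured 108 to 118 CPM in the CC and 309 to 340 CPM in the Cb, a log2 fold change of -1.55 (SE 0.11, adjusted p = 5.28e-10). Cd74 measured 25.1 to 30.8 CPM against 87.4 to 119 CPM, a log2 fold change of -1.95 (SE 0.32, adjusted p = 0.00124), the same value as at P7. Spint1 lay between 58.6 and 118 CPM in the CC and between 199 and 248 CPM in the Cb, a log2 fold change of -1.44 (SE 0.19, adjusted p = 9.67e-05 by edgeR). The groups of 4 libraries did not overlap for 10 of the 15 genes, beside 7.8% of all genes. All 12 genes higher in the CC at P7 kept their sign at P10. Of these, 3 passed an adjusted p of 0.01 by edgeR, namely Sepp1, Clta and Lmo2, beside 0.11% of all genes towards the CC.

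At P42, 11 of the 15 genes had the same sign, 2 passed an adjusted p of 0.01 (1.28% of all genes by edgeR) and 0 were called, where 88 of all genes were (0.421%). By edgeR 5 of the 15 had an unadjusted p of 0.05 or less at P42 (20.5% of all genes), and DESeq2 and limma-voom with a narrower span also called 0. The 2 that passed were Cd34, with 287 to 376 CPM in the CC and 527 to 625 CPM in the Cb (log2 fold change -0.76, SE 0.11, adjusted p = 1.02e-04), and Pag1, with 98.2 to 158 CPM against 206 to 258 CPM (log2 fold change -0.72, SE 0.15, adjusted p = 0.00547 by edgeR). Spint1 had reached 218 to 284 CPM in the CC and 261 to 301 CPM in the Cb, with a log2 fold change of -0.11 (SE 0.18, adjusted p = 0.826 by edgeR).

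The change of the region difference itself was tested in the same model. Between P7 and P10 it passed an adjusted p of 0.01 for 8 of all genes (0.0382%), of which 1, Selplg, was a called gene, with a difference of -0.76 (SE 0.13, adjusted p = 0.00782 by edgeR). The count of 8 became 0 to 10 when 1 library was left out and 0 when only the groups compared were fitted, and the change of Selplg did not pass by limma-voom or without any 1 of 10 libraries. The others were Malat1, which was higher in the Cb at P7 and had a log2 fold change of 0.86 at P10, Adgrg1, Ecscr, Gm44545, Gpr183, Ptpn6 and Gatm. The last 4 were no part of the naming rule and were chosen after their values were seen. Between P7 and P42 it passed for 4 of the 15 genes beside 0.229% of all genes, namely Il7r (-3.83), Ptprm (-2.70), Spint1 (-2.20) and Selplg (-1.18). The called genes were chosen on the P7 values that enter these contrasts. Upk1b, a homeostatic gene, went from higher in the Cb at P7 to 133 to 209 CPM in the CC and 21.7 to 50.4 CPM in the Cb at P42, a log2 fold change of 2.19 (SE 0.33, adjusted p = 2.36e-04 by edgeR).

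**Figure D5:**
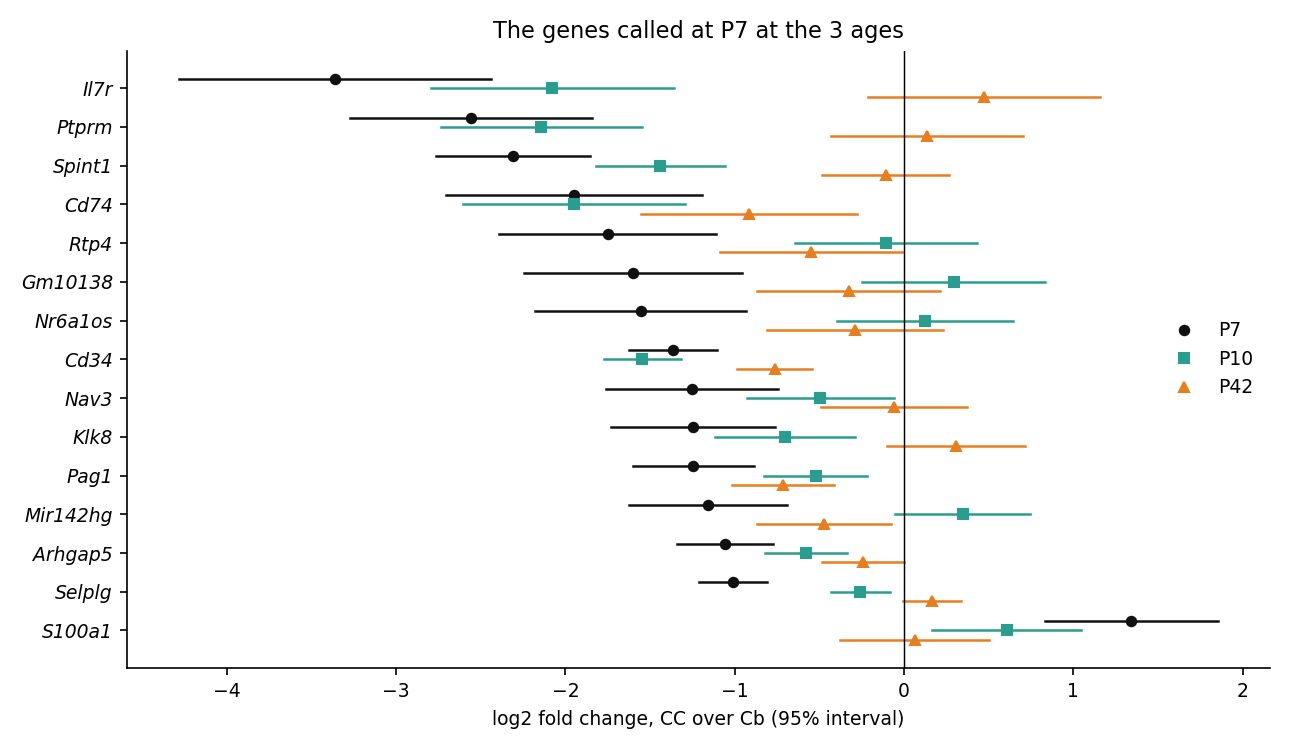
Log2 fold change of the CC over the Cb with its 95% interval for the 15 genes called at P7, at P7 (n = 3 libraries per region), P10 and P42 (n = 4 each). The interval of Cd34 lies below 0 at all 3 ages, whereas those of Spint1, Ptprm and Il7r reach 0 at P42.

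Over the means of the 9 groups, 5 genes followed Spint1 most closely among 9003 genes with at least 10 CPM in a group. They were the cytokine signalling inhibitor Socs3 (Pearson's r 0.99), Ptprm (0.99), Il7r (0.98), Arhgap5 (0.98) and the sphingosine phosphate transporter Spns2 (0.97). Of these, 3 were themselves called at P7, and Spns2 had a log2 fold change of -1.51 (SE 0.35, adjusted p = 0.0384 by edgeR). The 9 points share regions and ages, and the values describe likeness only.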

How the data were processed

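Bulk RNA-seq covered 33 libraries of sorted microglia from 9 groups of region and age, made with a low-input cDNA kit that does not mark strand. The authors mapped reads to GRCm38 with STAR 2.5.2b, assigned them to genes with featureCounts 1.6.2, discarding reads with several locations or genes, and deposited raw counts for 48587 genes. The paper's methods name limma-voom (version 3.38) for their tests.

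The 92 spike-in sequences were left out. Genes without reads (17212) and the 10458 with the lowest summed counts (up to 26) were removed, the share of low genes that the methods drop, leaving 20917. The average count that the methods give for this step was not matched. Library totals ran from 22761090 to 58065163 reads on genes. Tests used R 4.3.3 and edgeR 4.0.16 (TMM factors, robust quasi-likelihood fit, 9 groups), with limma 3.58.1 and DESeq2 1.42.0 as alternatives, and Benjamini-Hochberg adjustment over all genes tested. Libraries of a group differed by more than counting noise (lowest chi-square per degree of freedom 24.3 over 45 pairs).

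Named were all called genes, up to 8 more per direction with an adjusted p of 0.05 or less, at least 10 CPM and no overlap, all members of the paper's lists, and from other lists those past 0.05 and the 2 most abundant. Genes past 0.01 below the fold limit were added after their values were seen. The members and gene lists were chosen with earlier results of these data known. Alternatives were other normalizations, filters, tools, covariates, thinned counts and each library left out.

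The test was tried on simulated data. With 50 genes changed per fold between CC and Cb at P7, it recovered 2 at 1.5-fold, 10 at 2-fold, 25 at 3-fold and 36 at 6-fold at an adjusted p of 0.01, and called 0 unchanged genes of 20905. The immunofluorescence of the study was not analysed here.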

Additional observations from a re-analysis of the deposited data

Results flagged for a closer look

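Among 60 groups of 4 libraries at P10 and P42 examined for the 15 called genes, 4 held a library far from the other 3 by Dixon's criterion, which chance exceeds in about 1 of 20 groups. They were Klk8 at 39.6 CPM in Cb P42 replicate 2, Arhgap5 at 389 CPM in CC P42 replicate 4, and Il7r at 17.1 CPM in Cb P10 replicate 1 and at 74.8 CPM in Cb P42 replicate 1. The other 3 Cb libraries at P10 had 34.9 to 37.0 CPM of Il7r, and those at P42 had 32.9 to 37.7 CPM.

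The difference between CC and Cb changed with age at an adjusted p of 0.01 (edgeR's test of the difference itself) for some of 66 genes examined. Against P10 there were 4: Malat1 (-1.96 on the log2 scale), Ecscr (-0.85), Selplg (-0.76) and Adgrg1 (-0.75).

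Against P42 there were 21. The values below 0, a difference more towards the Cb at P7 than at P42, were -3.90 for Upk1b, -3.83 for Il7r, -2.70 for Ptprm, -2.20 for Spint1, -1.22 for Ecscr, -1.18 for Selplg, -1.10 for Sparc, -1.06 for Tmem119, -1.05 for Cst3, -0.98 for Adgrg1, -0.92 for P2ry12, -0.83 for Tspan7, -0.81 for Picalm, -0.66 for Ctss, -0.63 for F11r, -0.61 for Ly86 and -0.51 for Cd53. The values above 0 were 1.09 for Aplp2, 0.91 for Mpp1, 0.91 for Rcbtb2 and 0.57 for Sepp1. The genes were chosen on their P7 difference, which enters each of these values.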

How the results depend on the processing

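At P7 the 15 calls became 52 with limma-voom (29 higher in the CC, 6 shared with the 15), 51 with limma-voom with a narrower smoothing span (29 and 7 shared), 79 with DESeq2 (15 and 15 shared), 32 at an adjusted p of 0.05 and 52 without a minimum fold change. The fit of the 6 libraries alone gave 18 (12 higher in the CC, 5 shared), and a replicate block by age and number gave 11 (9 shared). Leaving out 1 library gave 7 to 12, with 9 without CC replicate 1, 7 without CC replicate 3, 7 without Cb replicate 1 and 8 without Cb replicate 2. The narrower span was chosen after seeing the data. The largest voom weight was 4.19e+10 with the default span of 0.5 and 193 with a span of 0.2. Selplg lost its call with the default span (adjusted p = 0.21 by limma-voom) and kept it with the narrower one (8.42e-07), and of the 52 genes at an adjusted p of 0.01 by edgeR, 32 also passed by limma-voom, against 43 with the narrower span. Spint1 and Cd34 kept their call in all 16 alternatives by gene, and Gm10138 in 3, the fewest of the 15.

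Same-numbered CC and Cb libraries at P7 correlated at 0.0148 to 0.121 in their deviations. Each of the 3 CC libraries at P7 and of the 4 at P10 correlated best with the Cb library of its own number. At P42 this held for only 2 of the 4. In the labels, same-numbered CC and Cb libraries match in sex at each age, and the P7 titles repeat the number across regions. The labels do not name the animals. Cb P7 replicate 1 correlated better with CC replicate 2 (0.0249). Since not every pair exceeded 0.1, the numbers were not taken as pairs. The main p-values thus take CC and Cb libraries that may share animals as independent. With the replicate block, 11 genes were called at P7, as given above. The count of all tested genes with an interval within -1 and 1 was 7001, or 11438 with no filter (6269 to 6628 with 1 library left out). Of the 15, 5 were called at P10, and 2 when only the groups compared were fitted. At P42 0 were called, and 1 without CC P42 replicate 2 (0 to 1 over all left out). The change against P10 held for 1 of the 15, with 0 by limma-voom and by the groups compared alone, 5 by DESeq2 and 0 to 1 with 1 library left out. The 10 libraries that each ended it were CC P7 replicates 2 and 3, Cb P7 replicates 1 and 3, CC P10 replicates 3 and 4 and Cb P10 replicates 1 to 4. The change against P42 held for 4, with 2 by limma-voom at either span and by the groups compared alone, and 4 to 5 with 1 left out. Over all genes the change against P10 held for 8, with 20 by limma-voom, 21 with the narrower span, 85 by DESeq2, 0 by the groups compared alone, 3 with the replicate block and 0 to 10 with 1 left out. Each of the 6 P7 libraries, CC P10 replicate 4 and the 4 Cb P10 libraries brought it to 5 or fewer when left out. The causes were not tested. No gene named for its P7 call changed sign over its 16 alternatives. The balance of directions turned as given above, and the medians of some lists changed sign or left 0, in 4 of 16 alternatives for phagocytosis, 7 for growth factors, 12 for chemokines and 1 to 4 for 7 lists of markers, border macrophages among them. With 3 libraries a side, the simulation recovered 7 of 50 genes changed 2-fold at both limits, so an uncalled gene is not shown to be equal.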
